A study of Mus musculus with 15 samples.

Results

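The 8 genes described here, Klf1, Gata1, Epor, Alas2, Fech, Tfrc, Slc4a1 and Ank1, are regulators, heme synthesis genes and membrane genes of red blood cells. They were taken by name from every transcript table, and all 8 were found, out of 30534 features in all. The tables came from thin sections of mouse embryos taken at 3 stages, day 10 (E10), day 11 (E11) and day 12 (E12), in which barcodes flowed through crossed microfluidic channels give each square of tissue (a pixel, 10, 25 or 50 µm wide) its own barcode pair. There were 11 transcript libraries in 6 groups, with 3 at E10 50 µm, 1 at E10 25 µm, 2 at E10 10 µm, 2 at E11 25 µm, 2 at E11 10 µm and 1 at E12 50 µm. The labels give frozen embryo sections and no strain, genotype, sex or treatment, which holds for every group, and they state neither the embryo nor the body region behind a section. The titles of both E11 10 µm libraries, and of neither E11 25 µm library, hold the letters FL, which the labels do not explain. Between these 2 groups, pixel width cannot be told apart from what the letters mark. Nothing says that replicate libraries came from separate embryos, so p-values measure the spread between these libraries, which may be technical. Stage cannot be told apart from the region cut or from the embryo. Where E12 is set against E11, it cannot be told apart from pixel width either, since no width was used at both.

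In the mouse embryo, the first (primitive) red cells form in the yolk sac and mature while they circulate, and the later (definitive) red cells form in the fetal liver. Gata1 and Klf1 encode zinc finger transcription factors that bind GATA motifs and CACC boxes of red cell genes, and the erythropoietin receptor, encoded by Epor, keeps red cell precursors alive. The transferrin receptor, encoded by Tfrc, brings iron into dividing cells of many kinds and above all into red cell precursors. Alas2 encodes the red cell form of the first enzyme of heme synthesis and Fech the enzyme that puts iron into the finished ring. Slc4a1 encodes band 3, the anion exchanger of the red cell membrane, and Ank1 encodes ankyrin, which ties band 3 to the skeleton under the membrane.

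The 250 bases upstream of a start site in RefSeq are shown for 4 of these genes, because Klf1 and Gata1 parted from Alas2 by place in the sections and encode factors that bind the 2 motifs searched. The sequences are RefSeq's (GRCm38.p6), and windows of 5 of the 8 genes were searched. They are written 5′ to 3′ on the strand of the gene, in lower case, with capitals for each match to the GATA core (GATAA, or TTATC on the other strand) or to the CACC box (CACCC, or GGGTG on the other strand). They lie at chrX:150547167-150547416 on the plus strand (Alas2), chr8:84901732-84901981 on the plus strand (Klf1), chrX:7967911-7968160 on the minus strand (Gata1) and chr9:21963577-21963826 on the minus strand (Epor). RefSeq's starts differ from the GENCODE starts behind the gene positions given further on: the Klf1 and Alas2 windows run past the GENCODE start, and the Gata1 window lies inside the GENCODE gene.
Alas2: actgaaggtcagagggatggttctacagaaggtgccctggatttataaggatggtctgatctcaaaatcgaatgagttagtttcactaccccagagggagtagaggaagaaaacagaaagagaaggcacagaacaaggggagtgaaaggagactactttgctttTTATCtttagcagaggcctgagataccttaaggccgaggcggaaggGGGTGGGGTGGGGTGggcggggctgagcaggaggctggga
Klf1: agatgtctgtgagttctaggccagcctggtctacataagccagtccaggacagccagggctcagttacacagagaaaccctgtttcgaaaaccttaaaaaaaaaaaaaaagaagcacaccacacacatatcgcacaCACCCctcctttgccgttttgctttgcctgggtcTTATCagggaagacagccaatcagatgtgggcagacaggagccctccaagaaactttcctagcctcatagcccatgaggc
Gata1: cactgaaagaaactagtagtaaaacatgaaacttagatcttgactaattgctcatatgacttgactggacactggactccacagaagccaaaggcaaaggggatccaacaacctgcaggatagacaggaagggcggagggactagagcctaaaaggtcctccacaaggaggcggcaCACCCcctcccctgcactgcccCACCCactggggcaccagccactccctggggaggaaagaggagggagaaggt
Epor: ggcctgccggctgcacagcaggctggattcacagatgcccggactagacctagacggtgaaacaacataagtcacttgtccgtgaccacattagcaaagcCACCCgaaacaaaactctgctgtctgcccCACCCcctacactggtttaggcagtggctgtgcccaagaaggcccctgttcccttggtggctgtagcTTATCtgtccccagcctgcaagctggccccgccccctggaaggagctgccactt

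The Alas2 window held 1 GATA core and 3 CACC boxes, the Klf1 window 1 and 1, the Epor window 1 and 2, and the Gata1 window 0 and 2. The windows of Tfrc, which are not shown, held 0 GATA cores each, with 2 CACC boxes in one and 3 in the other. Of 32851 windows of the same length in the same table, 22.6% held a GATA core, 52.0% a CACC box and 10.1% both. These are matches of letters, and binding was not measured.

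Tissue pixels had a total of at least 0.1 times their library's 95th percentile, and numbered 829 to 2271 per library and held 1563489 to 11998765 counts. Globins made up 1.49% to 3.27% of the counts in the 10 E10 and E11 libraries and 8.94% at E12. A grouped liver signal was called where Moran's I, the likeness of neighbouring pixels, was at least 0.1 for 8 summed liver genes (Alb, Afp, Apoa1, Apoa2, Ahsg, Fga, Fgb and Fgg). It was found in 4 libraries (both E11 25 µm libraries, E11 10 µm replicate 2 and E12 50 µm, Moran's I 0.475 to 0.750), and Moran's I was at most 0.059 in the other 7. Libraries share grid positions, 521 to 2500 per pair, because all use the same barcode grid. In the 6 pairs of libraries within a group, counts differed by far more than sampling noise (chi-square per degree of freedom 24.6 to 70.0), so none was a copy of another.

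The 8 genes are protein coding in GENCODE M21 (GRCm38), which was used for positions only. Klf1 lies on chromosome 8 (84901928 to 84905291, plus strand), as does Ank1 (22974844 to 23150497, plus strand). Gata1 (7959260 to 7978071, minus strand) and Alas2 (150547375 to 150570638, plus strand) lie on chromosome X. Epor lies on chromosome 9 (21958897 to 21963506, minus strand), Slc4a1 on chromosome 11 (102348824 to 102366203, minus strand), Tfrc on chromosome 16 (32608920 to 32632794, plus strand) and Fech on chromosome 18 (64452914 to 64490251, minus strand). The files hold 1 count per gene and pixel, so reads of other genes inside the Ank1 locus cannot be told apart from Ank1 if the counting ignored strand, and the use of strand is not given in the sources used here.

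The levels of the 8 genes overlapped between E10 and E11, with high Klf1 and Gata1 in 1 E11 library, and all but Gata1 were highest at E12. Levels are counts per 1000000 gene counts (CPM) over the tissue pixels of a library, and they are compared between libraries for 1 gene at a time. Klf1 was at 6.34, 5.60 and 5.92 CPM in the 3 E10 50 µm libraries, 7.04 at E10 25 µm, 8.17 and 6.98 at E10 10 µm, 12.6 and 4.95 at E11 25 µm, 5.45 and 31.7 at E11 10 µm and 37.1 at E12. Gata1 was at 5.55, 3.81 and 4.51 CPM at E10 50 µm, 2.56 at E10 25 µm, 6.75 and 3.77 at E10 10 µm, 6.71 and 5.60 at E11 25 µm, 7.39 and 30.3 at E11 10 µm and 22.2 at E12. For both regulators, E11 10 µm replicate 2 and E12 stood above the other 9 libraries. Of the other E11 libraries, 25 µm replicate 1 for Klf1 (12.6) and 10 µm replicate 1 for Gata1 (7.39) were also above all of E10, and the rest were not. Epor was at 8.20, 6.67 and 3.29 CPM at E10 50 µm, 10.2 at E10 25 µm, 10.3 and 4.15 at E10 10 µm, 7.70 and 7.16 at E11 25 µm, 4.28 and 8.02 at E11 10 µm and 14.6 at E12. Its E12 level was the highest, and its E11 levels lay within the E10 range.

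The heme enzymes were both highest at E12. Alas2 was at 46.9, 44.5 and 45.8 CPM at E10 50 µm, 81.2 at E10 25 µm, 84.2 and 43.0 at E10 10 µm, 55.5 and 29.3 at E11 25 µm, 56.0 and 46.3 at E11 10 µm and 143 at E12. Fech was at 39.9, 35.6 and 42.9 CPM at E10 50 µm, 62.0 at E10 25 µm, 51.8 and 28.3 at E10 10 µm, 38.5 and 33.0 at E11 25 µm, 32.7 and 51.8 at E11 10 µm and 126 at E12. E10 and E11 overlapped for both, at 57.6 ± 19.5 (SD, n = 6) against 46.8 ± 12.5 CPM (SD, n = 4) for Alas2 and 43.4 ± 12.0 (SD, n = 6) against 39.0 ± 8.95 CPM (SD, n = 4) for Fech. Tfrc, which brings in the iron that Fech uses, was at 137, 111 and 97.2 CPM at E10 50 µm, 92.1 at E10 25 µm, 115 and 63.2 at E10 10 µm, 49.3 and 123 at E11 25 µm, 42.8 and 95.2 at E11 10 µm and 263 at E12. Replicates of Tfrc lay far apart in the E10 10 µm, E11 25 µm and E11 10 µm groups, and E12 was above all of them.

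The membrane genes were likewise highest at E12. Slc4a1 was at 74.4, 84.7 and 64.2 CPM at E10 50 µm, 147 at E10 25 µm, 132 and 52.5 at E10 10 µm, 94.7 and 48.8 at E11 25 µm, 65.4 and 59.8 at E11 10 µm and 272 at E12. Ank1 was at 12.1, 10.8 and 11.6 CPM at E10 50 µm, 23.7 at E10 25 µm, 23.0 and 8.87 at E10 10 µm, 13.2 and 8.60 at E11 25 µm, 8.17 and 17.9 at E11 10 µm and 47.7 at E12. For Alas2, Slc4a1, Epor, Fech and Ank1, the same 2 E10 libraries (E10 25 µm and E10 10 µm replicate 1) were the highest of E10. The counts behind these levels ran from 4 (Gata1 at E10 25 µm) to 1767 (Slc4a1 at E12). The 95% exact binomial interval of the single E12 level was 11.8 to 17.9 CPM for Epor, with 95 counts, and 259 to 285 CPM for Slc4a1. Intervals cover counting error only.

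**Figure D1:**
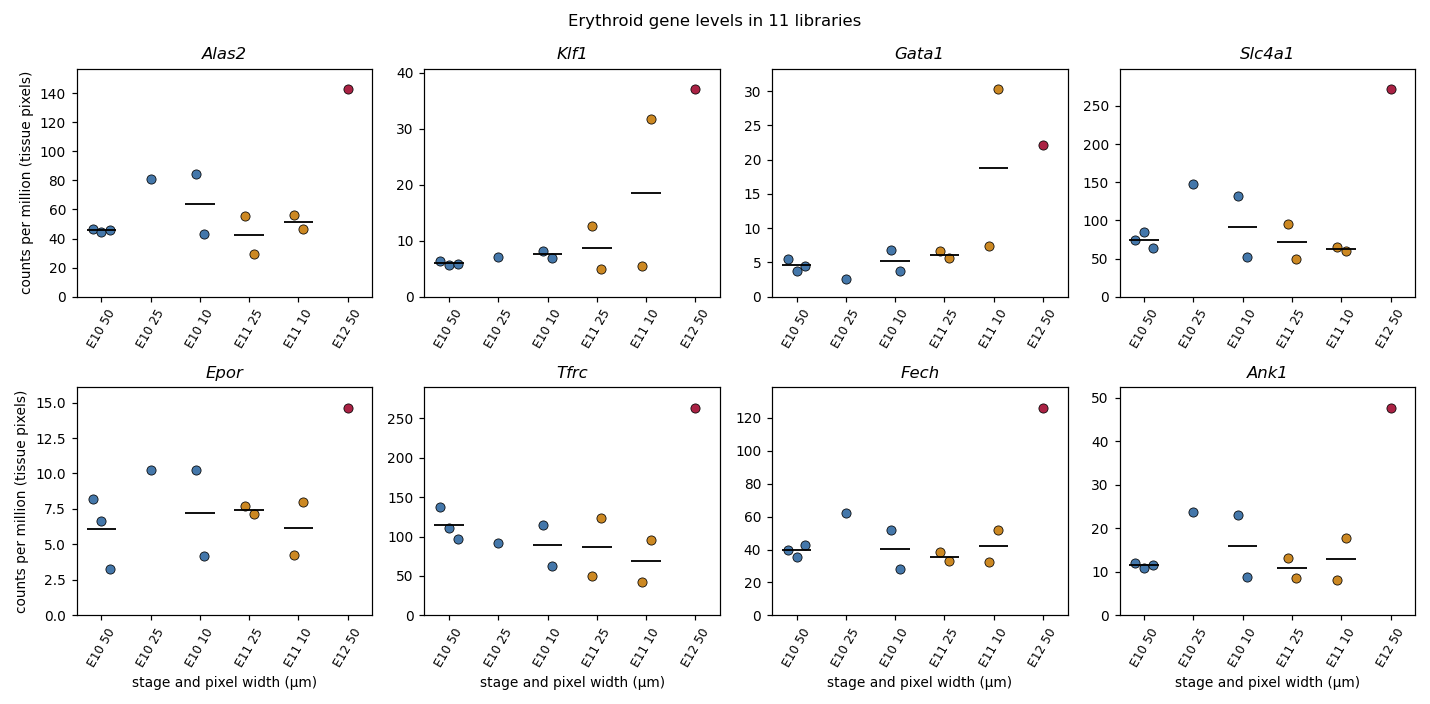
Levels of the 8 genes (vertical axis, CPM over tissue pixels, from 0) by stage and pixel width (horizontal axis). Each point is 1 library, coloured by stage, and a bar is the mean of a group with 2 or 3 libraries. E12 is the highest point for each gene but Gata1, where E11 10 µm replicate 2 is higher.

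Stage was compared over libraries, with counts summed over tissue pixels and tested with edgeR's quasi-likelihood test, Benjamini-Hochberg adjusted over 18233 genes with 0.05 as the threshold. At E12, Fech was higher than at E10 at 50 µm by 1.64 ± 0.35 (log2 fold change ± SE, adjusted p = 0.0327), and this was the 1 call among the 8 genes, where 2.14% of all genes tested were called. The other 7 were also above E10, by 1.15 (Tfrc) to 2.59 (Klf1), with adjusted p from 0.0526 (Ank1) to 0.373 (Epor). The median over the 8 was 1.73, against -0.04 over all genes tested. DESeq2 called 6 of the 8 (Alas2, Klf1, Gata1, Slc4a1, Fech and Ank1), and the count ran from 0 to 7 over the alternatives. It was 0 without any of the 3 E10 50 µm libraries or either E11 25 µm library, 4 (Alas2, Slc4a1, Fech and Ank1) without either E10 10 µm library and 6 without either E11 10 µm library. E12 has 1 library, so its spread was taken from the rest. Markers of other tissues were also higher at E12: the 8 liver genes summed to 3389 CPM against 2.73 to 6.86 in the 6 E10 libraries (1 of 8 called, Fga and Fgb at 0 in all of E10), megakaryocyte markers to 127 against 38.8 to 61.0 (0 of 5 called) and macrophage markers to 111 against 35.8 to 71.4 CPM (0 of 5 called). Their part in the E12 values was not tested. In sums over a section, more red cells and more RNA per red cell cannot be told apart. Of 8 globin genes tested, 5 were called higher at E12 and 1 (Hbb-bh1, an embryonic globin) lower. Per 1000 globin counts, Alas2 was at 1.60 at E12 and 1.40 to 3.99 at E10, and Klf1 at 0.415 at E12 and 0.176 to 0.359 at E10. Of the 8 genes, Klf1 alone was above its E10 range. Like Alas2, Gata1 (0.248 against 0.120 to 0.274) and Slc4a1 (3.04 against 2.33 to 7.22) lay within theirs. So did Tfrc (2.94 against 2.81 to 5.90), Fech (1.41 against 1.12 to 3.05) and Ank1 (0.533 against 0.341 to 1.16). Epor was below its E10 range (0.163 against 0.184 to 0.502).

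Between E10 and E11, averaging the change at 10 µm with that at 25 µm, 0 of the 8 genes were called, where 3.6% of genes were. Gata1 differed most, by 1.65 ± 0.56 (log2, E11 over E10, adjusted p = 0.111), and it was the 1 gene of the 8 with an unadjusted p under 0.05. DESeq2 called 0. Without E11 10 µm replicate 1, Gata1 was called and the count was 1. Between pixel widths, 0 of the 8 genes were called between 10 and 25 µm at E11 (2.07% of genes called, 1 of the 8 at an unadjusted p under 0.05, Gata1, 0 by DESeq2) and 0 between 10 and 50 µm at E10 (0.11% called, 0 at an unadjusted p under 0.05, 0 by DESeq2). Without E11 10 µm replicate 1, Gata1 was called between the widths at E11. The 8 liver genes summed to 3600 CPM in E11 10 µm replicate 2, which was high in Klf1 and Gata1, and to 54.5 in replicate 1. In E11 25 µm replicates 1 and 2 they summed to 1117 and 1500 CPM, with Gata1 within its E10 range in both and Klf1 at 4.95 CPM, its lowest of the 11 libraries, in replicate 2. Markers of megakaryocytes, which also express Gata1, summed to 38.8 to 61.0 CPM at E10 and 47.1 to 733 at E11 (0 of 5 called). The part of either tissue in the Gata1 values was not tested.

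Within the sections, all 8 genes were higher where blood was. In each library the 20% of tissue pixels with the most globin counts per non-globin count (globin-rich) were summed and compared with the other tissue pixels, with globins left out and the library as a block, so that the 11 sections are the replicates. All 8 genes were called higher in globin-rich pixels, where 11.4% of 11662 genes were called. Their median log2 fold change was 1.99, against -0.02 over all genes. The log2 fold changes were 2.70 ± 0.24 (SE) for Slc4a1, 2.61 ± 0.24 for Alas2, 2.26 ± 0.14 for Ank1, 2.04 ± 0.17 for Epor, 1.93 ± 0.20 for Gata1, 1.82 ± 0.20 for Klf1, 1.78 ± 0.13 for Fech and 0.93 ± 0.24 for Tfrc. For Tfrc the adjusted p was 0.0338, with 7 or 8 genes called over the alternatives. Tfrc was the gene lost, and its adjusted p was above the threshold without E10 50 µm replicate 2, E10 10 µm replicate 1, either E11 25 µm library or E11 10 µm replicate 2, and with the top 50% by globin or a stricter tissue threshold (up to 0.191 over these).

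Each of the 8 genes had a ratio of globin-rich to other pixels above 1 in 11 of 11 libraries. Not all of these ratios were beyond counting error. For Tfrc the 95% counting interval included 1 in E10 50 µm replicate 3, E10 25 µm and E10 10 µm replicate 2. It also did so in E11 10 µm replicate 1 (0.725 to 1.96). For Epor it included 1 in E10 50 µm replicate 3 (0.715 to 3.82) and E11 10 µm replicate 1 (0.978 to 15.9). For Gata1 it did in E11 25 µm replicate 2 (0.798 to 3.77). Slc4a1 was 3.90 to 6.05 times as high as in other pixels at E10 (6 libraries), 19.0, 17.4, 5.74 and 7.55 times in the E11 libraries (25 µm, then 10 µm) and 7.64 times at E12. Alas2 was 3.04 to 6.89 times as high at E10, 15.5, 17.2, 7.64 and 10.3 times in the E11 libraries and 6.07 times at E12. For Alas2 the lowest E11 library was above the highest E10 library, and for Slc4a1 the ranges overlapped. Tfrc was 1.15 to 2.53 times as high at E10, 1.65, 2.46, 1.21 and 1.86 times in the E11 libraries and 5.95 times at E12, where Fech was at 5.94 times. Globin-rich pixels held 18.7% to 32.6% of the Tfrc counts in the E10 and E11 libraries and 54.6% at E12. They held 37.8% to 74.2% of the Alas2 counts over the 11 libraries. Klf1 and Gata1 were 1.15 and 1.61 times as high in globin-rich pixels in E11 10 µm replicate 2, the lowest values of each gene. The 95% counting intervals of both included 1 (0.622 to 1.99 and 0.924 to 2.71). The highest Gata1 ratio, 15.8 at E10 25 µm, rests on 3 counts against 1, with a 95% counting interval of 1.27 to 829, and that of Klf1 there, 1.97, on 3 counts against 8 (0.337 to 8.22).

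**Figure D2:**
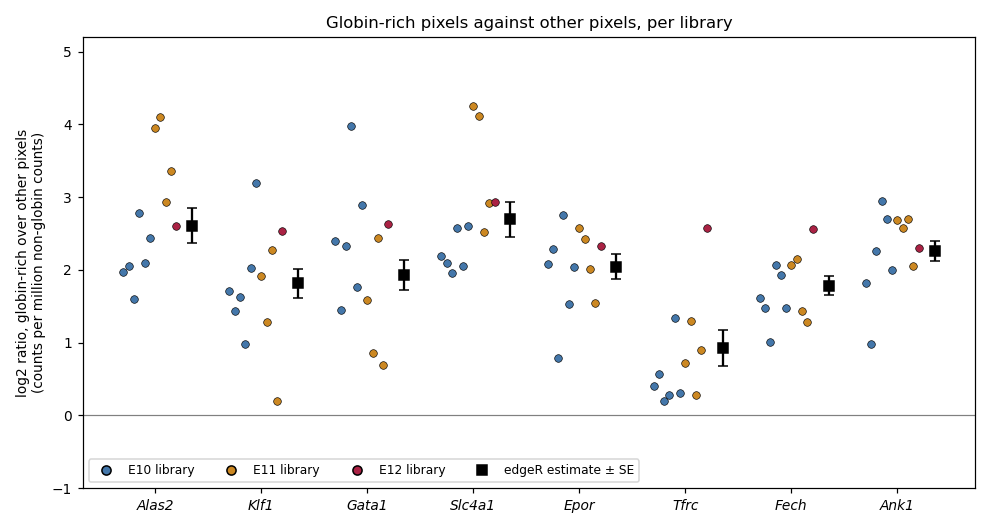
Ratio of each gene between globin-rich and other tissue pixels (vertical axis, log2 of CPM of non-globin counts) for the 8 genes (horizontal axis). Circles are the 11 libraries, coloured by stage, and black squares are the edgeR estimates ± SE, from 0.93 for Tfrc to 2.70 for Slc4a1. All circles lie above 0.

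Other cells were enriched in the same pixels. All 6 endothelial markers, 3 of 3 tested megakaryocyte markers and 3 of 3 tested macrophage markers were called higher in globin-rich pixels, and 5 of 5 neuron markers were called lower. Endothelial markers summed to 258 to 542 CPM of non-globin counts in globin-rich and 116 to 289 in other pixels, and megakaryocyte markers (Pf4, Itga2b, Gp9, Gp1bb and Ppbp) to 66.6 to 722 and 30.2 to 755. The part of these cells in the results was not tested. Globin-rich pixels had fewer counts than the others in 11 of 11 libraries (medians 689 to 9644 against 879 to 11830).

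When the change in globin-rich pixels was fitted per stage, which was added after the data were seen, Alas2 was the 1 gene of the 8 whose change differed between E11 and E10, by 1.58 ± 0.21 (log2, adjusted p = 0.000378), where 0.06% of genes were called. The difference for Slc4a1 was 1.44 ± 0.32 (adjusted p = 0.269). Between E12 and E10, the changes of Tfrc (2.06 ± 0.36, adjusted p = 0.00998) and Fech (1.08 ± 0.26, adjusted p = 0.0114) differed, where 4.4% of genes were called. Between E12 and E11, 0 of the 8 were called by edgeR, where 2.02% of genes were, and 5 had an unadjusted p under 0.05 (DESeq2 was not run on this difference). Heart muscle markers moved with the E12 difference: 4 of 7 were called, against 0 of 7 at E11 minus E10, and so were 3 of 5 proliferation markers. Their part was not tested. With the 10% of pixels richest in globin in place of 20%, 0 of the 8 were called in any of these 3 differences.

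Pixel by pixel, the 8 genes followed globins to very different degrees. Pearson's r between log2(counts per 10000 non-globin counts + 1) of a gene and of summed globins, within 1 library at a time, is given as a description, because pixels of a section share its depth and its blood vessels. For Slc4a1 it had a median of 0.49 over 11 libraries (range 0.22 to 0.58), for Alas2 0.37 (0.19 to 0.50), for Fech 0.21 (0.07 to 0.38) and for Ank1 0.18 (0.08 to 0.32). For Epor the median was 0.15 (0.05 to 0.25), for Klf1 0.12 (0.01 to 0.27), for Gata1 0.09 (0.00 to 0.22) and for Tfrc 0.07 (-0.02 to 0.33). The genes with few counts had low values: Gata1 was seen in 0.227% to 6.71% of tissue pixels and Slc4a1 in 5.91% to 50.5%. The summed 8 genes had a median of 0.465 (0.24 to 0.61), and 0.280 after each pixel was thinned to 1000 counts (34.0% to 100% of pixels kept). The correlation of the summed genes with the pixel's total count was -0.10 to 0.16.

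**Figure D3:**
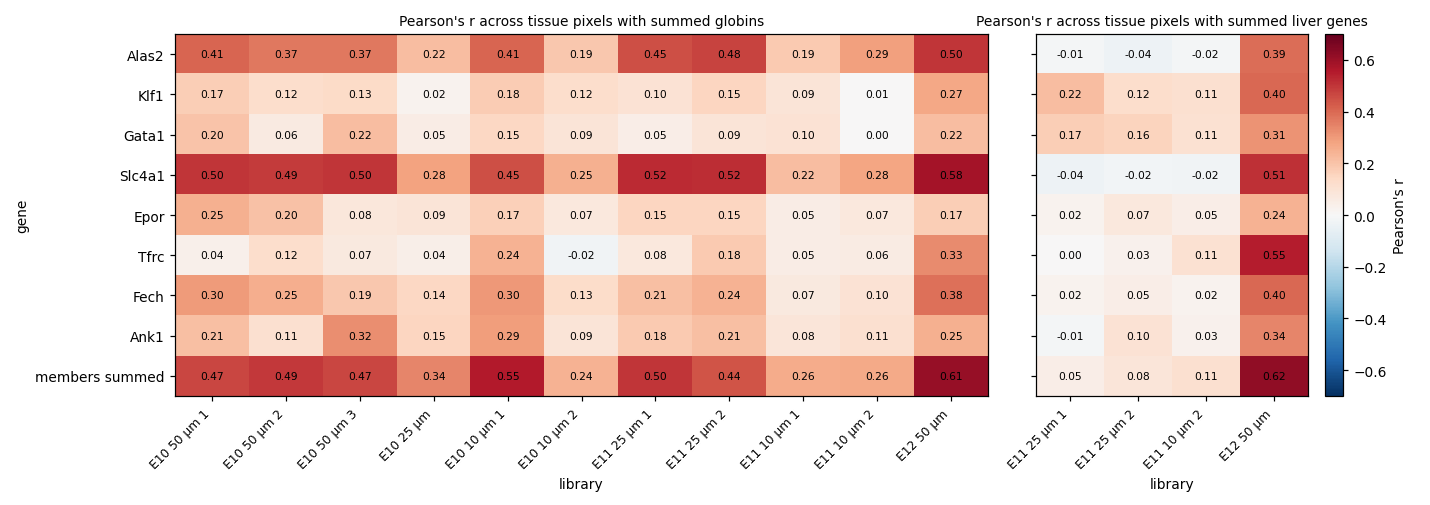
Pearson's r across tissue pixels between each gene (rows, with the sum of the 8 last) and summed globins in 11 libraries (left, columns) or summed liver genes in the 4 libraries with a grouped liver signal (right, columns). Red is positive and blue negative. Slc4a1 and Alas2 lead with globins, and with liver genes E12 stands apart, with 0.62 for the summed genes against 0.05 to 0.11 at E11.

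With liver genes, the correlation set Klf1 and Gata1 apart from Alas2 and Slc4a1 at E11 and not at E12. In the 3 E11 libraries with a grouped liver signal, r was 0.22, 0.12 and 0.11 for Klf1 and 0.17, 0.16 and 0.11 for Gata1, and -0.04 to -0.01 for Alas2 and Slc4a1. The remaining genes filled the gap, with 0.00 to 0.11 for Tfrc, -0.01 to 0.10 for Ank1, 0.02 to 0.07 for Epor and 0.02 to 0.05 for Fech. At E12 it was 0.40 for Klf1, 0.31 for Gata1, 0.39 for Alas2, 0.51 for Slc4a1, 0.55 for Tfrc, 0.40 for Fech, 0.34 for Ank1 and 0.24 for Epor. In sparse counts the weak E11 values are no finding by themselves, and sums over the liver region follow.

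The 5% of tissue pixels richest in liver genes (liver-rich) were summed in the 4 libraries with a grouped liver signal. Klf1 and Gata1 were concentrated there in both E11 25 µm libraries, where the liver-rich pixels held 50.0% of all Klf1 counts in each (32 of 64 and 19 of 38) and 52.9% and 55.8% of all Gata1 counts (18 of 34 and 24 of 43). At E12 they held 38.6% of Klf1 counts (93 of 241) and 49.3% of Gata1 counts (71 of 144). In E11 10 µm replicate 2 they held 16.1% of Klf1 (14 of 87) and 6.02% of Gata1 (5 of 83). The liver-rich pixels held 45.6% of the liver counts in that library, 52.4% at E12 and 74.1% and 79.6% in the E11 25 µm libraries. With 2% of pixels in place of 5%, that library had 3 Klf1 counts against 84 and 0 Gata1 counts against 83 in liver-rich and other pixels, too few for a ratio. With 10% of pixels, its ratio of liver-rich to other pixels was 1.49 for Klf1 (20 against 67 counts) and 1.69 for Gata1 (21 against 62).

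Over the 4 libraries, Klf1 was higher in liver-rich than in other pixels by 2.86 ± 0.37 (log2 ± SE, adjusted p = 0.000285), Gata1 by 2.96 ± 0.69 (adjusted p = 0.0249), Epor by 1.81 ± 0.38 (adjusted p = 0.0044) and Ank1 by 1.73 ± 0.47 (adjusted p = 0.0265). These were 4 of the 8 genes, where 20.4% of 11172 genes were called. DESeq2 called the same 4 and Tfrc. Per library, in the order E11 25 µm replicates 1 and 2, E11 10 µm replicate 2 and E12, Klf1 was 11.0, 12.6, 2.15 and 7.00 times as high in liver-rich pixels, and Gata1 12.4, 15.9, 0.719 and 10.8 times. The Gata1 ratio was thus below 1 in 1 of the 4 libraries and above 1 in the other 3. The ratio below 1 rests on 5 counts in liver-rich pixels, with a 95% counting interval of 0.227 to 1.75. Gata1 was not called without either E11 25 µm library (3 of the 8 genes called without replicate 1, and 2, Klf1 and Epor, without replicate 2) or without E12 (2 called, Klf1 and Tfrc). With all 11 libraries in the fit, of which 7 have no grouped liver signal, 0 were called. Tfrc (1.34 ± 0.48, adjusted p = 0.137), Fech (1.12 ± 0.38, adjusted p = 0.0755), Slc4a1 (0.51 ± 0.70, adjusted p = 0.692) and Alas2 (0.37 ± 0.76, adjusted p = 0.80) were not called.

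Alas2 and Slc4a1 split between the E11 libraries and the E12 library. Their ratios of liver-rich to other pixels were below 1 in each E11 library, not all beyond counting error, and above 1 in the E12 library. Alas2 was 0.797, 0.344 and 0.271 times as high as in other pixels in the 3 E11 libraries (95% counting intervals 0.472 to 1.27, 0.125 to 0.762 and, on 3 counts, 0.0552 to 0.811) and 3.72 times at E12. With 10% of pixels as liver-rich, its ratio in E11 25 µm replicate 1 was above 1, at 1.28. Slc4a1 was 0.707, 0.708 and 0.500 times as high at E11, with intervals that all include 1 (0.468 to 1.03, 0.427 to 1.11 and 0.198 to 1.05), and 4.06 times at E12. In a fit with 1 change per stage, added after the data were seen, the E12 and E11 changes differed for Slc4a1 by 2.67 ± 0.29 (adjusted p = 0.00147), for Alas2 by 2.91 ± 0.44 (adjusted p = 0.0101) and for Tfrc by 1.95 ± 0.28 (adjusted p = 0.00958), where 0.17% of genes were called. Klf1 differed by 0.18 ± 0.79 and Gata1 by 1.01 ± 1.63, too imprecise to say whether they differ. In the same fit, 3 of the 8 were called higher at E11 (Klf1, Epor and Tfrc, 14.4% of genes called), and 7 at E12, where Gata1 was not called (8.67% called). The fit has 2 residual degrees of freedom and takes the spread at E12 from E11. Pixels were 25 or 10 µm wide in the E11 libraries and 50 µm at E12, so stage cannot be told apart from pixel width here. Without E11 25 µm replicate 1 the stage difference was called for 0 of the 8, and without replicate 2 for Slc4a1 alone. Alas2 was lost with 2% or 10% of pixels as liver-rich, and Slc4a1 and Tfrc were called with both.

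Set against blood elsewhere, the liver at E11 held more Klf1 and far less Alas2 and Slc4a1. Here liver-rich pixels were compared with globin-rich pixels outside them. The latter were chosen for their globins, which Slc4a1 and Alas2 followed most closely of the 8 across pixels. That choice favours lower values of both genes in liver-rich pixels with little globin, and how much it adds was not tested. At E11, Klf1 was higher in the liver by 1.42 ± 0.31 (log2 ± SE, adjusted p = 0.00731), and Alas2 (by -3.19 ± 0.25, adjusted p = 5.91e-07), Slc4a1 (by -2.87 ± 0.18, adjusted p = 4.35e-08) and Fech (by -1.04 ± 0.21, adjusted p = 0.00445) were lower. These are 4 of the 8 genes, where 12.6% of 7746 genes were called. At E12, Tfrc was called higher in the liver by 0.88 ± 0.21 (adjusted p = 0.0431), the 1 call among the 8 with 2.3% of genes called, and Alas2 (0.14 ± 0.25) and Slc4a1 (0.13 ± 0.20) lay near 0.

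Per library the split was plain. Alas2 was at 45.9, 10.8, 13.7 and 476 CPM of non-globin counts in liver-rich pixels (in the order above) and at 325, 172, 192 and 462 in globin-rich pixels outside them, a ratio of 0.142, 0.0625, 0.0711 and 1.03. Slc4a1 was at 70.1, 35.9, 31.9 and 968 CPM against 584, 278, 227 and 949, a ratio of 0.120, 0.129, 0.140 and 1.02. In all 3 E11 libraries both were at most 0.142 times as high in the liver, and at E12 both ratios were near 1. Klf1 was at 77.4, 34.1, 63.8 and 191 CPM against 27.3, 11.6, 34.7 and 86.0, a ratio of 2.83, 2.93, 1.84 and 2.22, above 1 in 4 of 4 libraries. Gata1 was at 43.5, 43.1, 22.8 and 146 CPM against 15.4, 8.45, 44.0 and 51.0, a ratio of 2.83, 5.10, 0.518 and 2.85, above 1 in 3 of 4. In E11 10 µm replicate 2 the 95% counting intervals of both regulators included 1 (Klf1 0.821 to 4.08, Gata1 0.151 to 1.43).

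**Figure D4:**
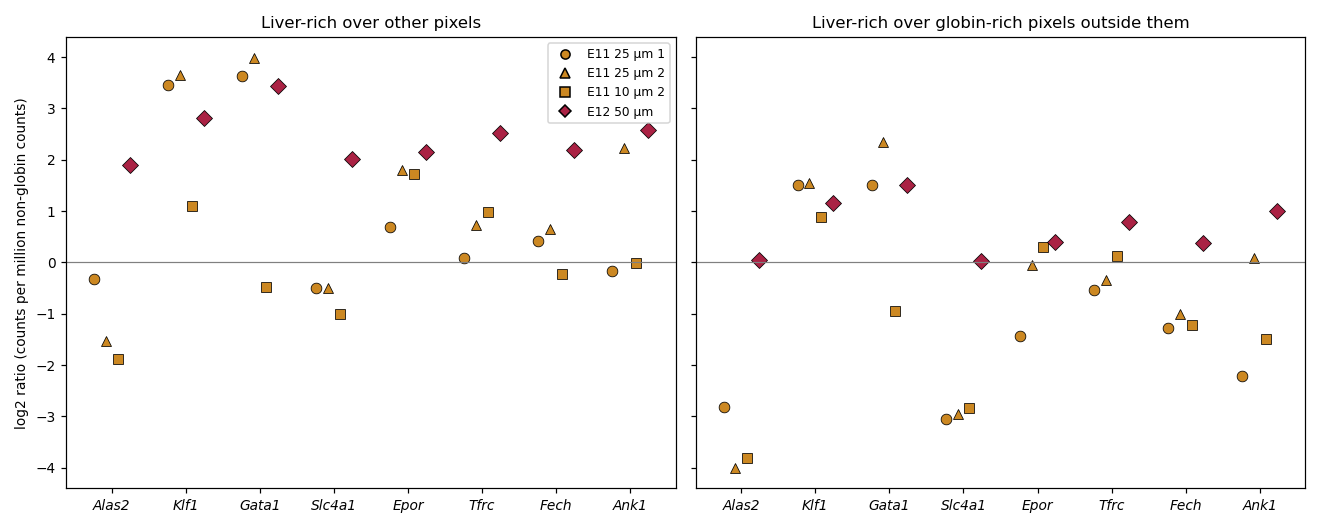
Ratio of each gene (horizontal axis) in liver-rich over other pixels (left) and over globin-rich pixels outside them (right), as log2 of CPM of non-globin counts (vertical axis), with 1 symbol for each of the 4 libraries. On the right, Alas2 and Slc4a1 lie far below 0 in the 3 E11 libraries and near 0 at E12, and Klf1 lies above 0 in all 4.

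The stages' changes against blood elsewhere differed for Alas2 (E12 minus E11 3.33 ± 0.37, adjusted p = 0.000737) and Slc4a1 (2.99 ± 0.27, adjusted p = 0.000117), 2 of the 8 genes, where 0.336% of genes were called. Both calls remained without any 1 of the E11 libraries and with 2% or 10% of pixels as liver-rich. These alternatives all keep comparison pixels chosen for their globins, so they cannot show how much that choice adds. The stage difference was not fitted with liver-rich pixels that were also globin-rich. Over both stages together, Klf1 (1.35 ± 0.23, adjusted p = 0.000623) and Gata1 (1.36 ± 0.36, adjusted p = 0.0170) were called, 2 of the 8 genes, where 16.7% of genes were called. DESeq2 called Alas2, Klf1 and Slc4a1 and did not call Gata1. Gata1 was also lost without either E11 25 µm library, and without E12 the 4 calls were Alas2, Klf1, Slc4a1 and Fech. With 2% of pixels as liver-rich, or with liver-rich pixels that were also globin-rich, 0 of the 8 were called.

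Blood content differed between the liver regions of the stages. Globins made up 2.25%, 1.70% and 1.07% of the counts in liver-rich pixels at E11 and 19.0% at E12, and 22.4%, 25.3% and 3.13% of those pixels were also globin-rich at E11, against 68.8% at E12. Per 1000 globin counts, Alas2 was at 2.00, 0.624, 1.27 and 2.03 in liver-rich pixels and at 2.68, 1.96, 2.18 and 1.42 in globin-rich pixels outside them, and Slc4a1 at 3.05, 2.08, 2.96 and 4.13 against 4.82, 3.17, 2.57 and 2.91. Klf1 was at 3.36, 1.98, 5.92 and 0.814 per 1000 globin counts in liver-rich pixels against 0.226, 0.132, 0.394 and 0.264, and Gata1 at 1.89, 2.50, 2.11 and 0.621 against 0.127, 0.0963, 0.499 and 0.156. The pixels outside the liver were chosen for their globins, which raises the denominator there, so these values per globin count are a description and no difference between the places is read from them. For Gata1 in E11 10 µm replicate 2, on 5 against 19 counts, the ratio was 0.518 by CPM and 4.24 per globin count. The 95% counting interval of the ratio by CPM was 0.151 to 1.43.

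**Figure D5:**
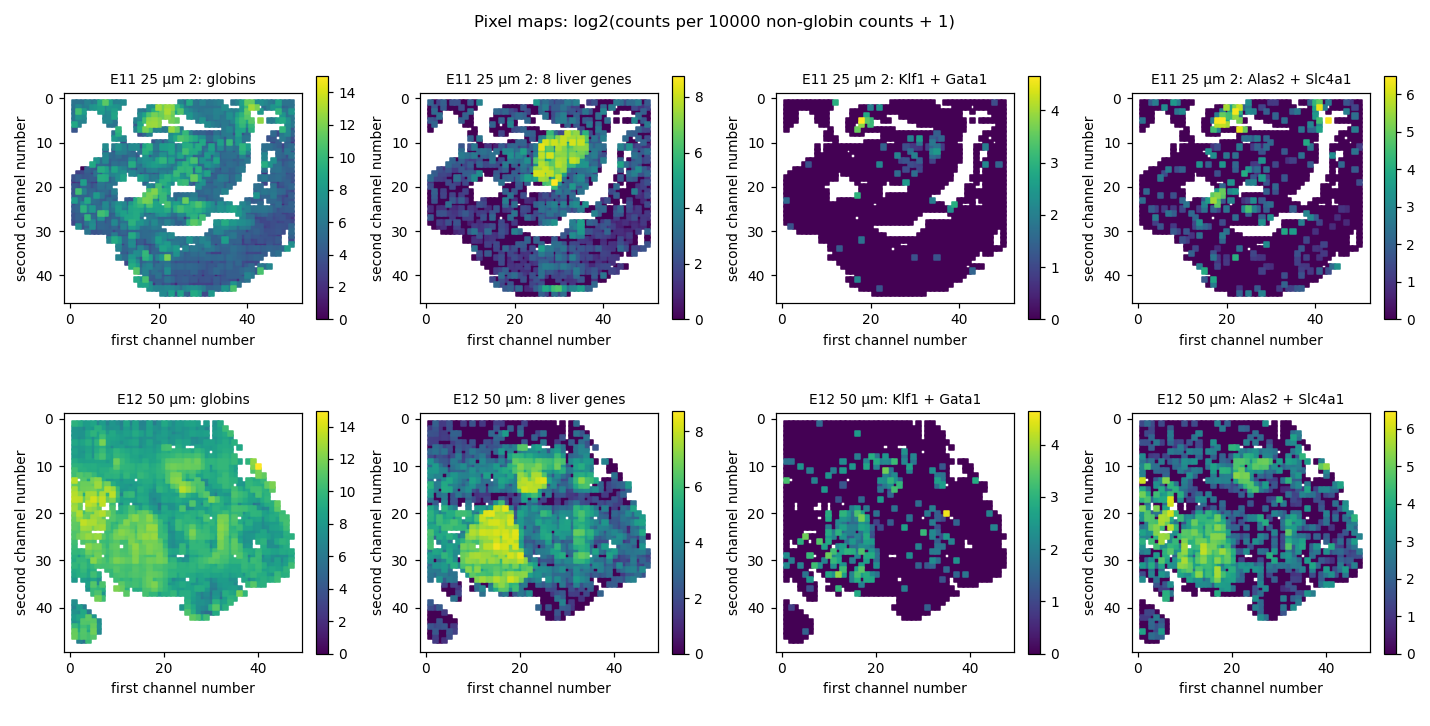
Maps of tissue pixels in E11 25 µm replicate 2 (top) and E12 50 µm (bottom) by channel number (both axes), coloured by log2(counts per 10000 non-globin counts + 1) of globins, 8 liver genes, Klf1 and Gata1 summed, and Alas2 and Slc4a1 summed. In this E11 library Klf1 and Gata1 mark the liver patch and Alas2 and Slc4a1 mark globin-rich patches outside it. Klf1 and Gata1 are 12.6 and 15.9 times as high in its liver-rich as in other pixels. In E11 10 µm replicate 2, which is not mapped, these ratios are 2.15 and 0.719. At E12 both pairs are high in the liver, and Alas2 and Slc4a1 are about as high in globin-rich pixels outside it (ratios 1.03 and 1.02).

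Markers of other cells moved with the liver region too. Megakaryocyte markers summed to 535 to 1331 CPM of non-globin counts in liver-rich pixels and 317 to 734 in globin-rich pixels outside them, higher in 4 of 4 libraries, and 2 of 5 were called. Heart muscle markers summed to 156 to 792 CPM in liver-rich pixels and 4397 to 6525 in globin-rich pixels outside them, so the globin-rich pixels include heart tissue. Macrophage markers summed to 72.9 to 172 against 62.5 to 201 CPM, with 0 of 3 called. Endothelial markers summed to 178 to 344 against 315 to 485 CPM, lower in 4 of 4 libraries. Their part in the results was not tested.

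A further 54 genes of red cells were followed in 4 lists, and no difference between lists was tested. The list of regulators includes Tspo2, which encodes a membrane protein. In globin-rich pixels 14 of 17 tested membrane and cytoskeleton genes were called higher (median log2 fold change 2.49, against -0.02 for all genes), among them Rhd (3.04 ± 0.22, adjusted p = 1.86e-07), Epb42 (3.02 ± 0.20, adjusted p = 4.07e-11) and Rhag (2.96 ± 0.17, adjusted p = 4.08e-11). Of the other heme synthesis genes 10 of 11 tested were called higher, of the regulators 6 of 13 and of the iron genes 3 of 7, and 0 were called lower, where 5.90% of all genes were called higher and 11.4% in either direction. In liver-rich against other pixels, 8 of 14 regulators were called higher, 1 of 10 heme genes, 5 of 16 membrane genes and 4 of 8 iron genes, where 9.91% of all genes were called higher and 20.4% in either direction. The heme count is near that background. The largest changes were in Trf (transferrin, secreted by liver cells, 3.70 ± 0.53, adjusted p = 0.0206), Nfe2 (2.62 ± 0.54, adjusted p = 0.00863), Steap3 (2.60 ± 0.50, adjusted p = 0.00261) and Lyl1 (2.52 ± 0.54, adjusted p = 0.0127). Against globin-rich pixels outside the liver, the regulators Myb (1.69 ± 0.46, adjusted p = 0.0235) and Lyl1 (1.32 ± 0.39, adjusted p = 0.0368) and the adhesion receptor Cd44 (1.53 ± 0.34, adjusted p = 0.00449) were higher, and Bpgm (-1.16 ± 0.28, adjusted p = 0.00713) and Epb41 (-0.69 ± 0.19, adjusted p = 0.0184) were lower, where 8.66% of all genes were called higher and 7.99% lower. The other genes of the lists were not called there.

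The stage difference of the liver was also seen in membrane genes. For liver-rich against globin-rich pixels outside them, the E12 minus E11 difference was called positive for 6 of 16 membrane genes, among them Epb42 (4.51 ± 0.85, adjusted p = 0.0291) and Rhd (3.43 ± 0.51, adjusted p = 0.00901). It was positive for 1 of 10 heme genes (Slc25a37) and for 0 of 13 regulators, and negative for 1 of 7 iron genes, Trf (-1.81 ± 0.30, adjusted p = 0.0144). The medians were 2.01 for membrane genes, 1.27 for heme genes, -0.15 for regulators and 0.08 for iron genes, with all genes near 0, and 0.336% of all genes were called. For liver-rich against other pixels, where 0.17% of all genes were called, 4 of 16 membrane genes and 3 of 10 heme genes were called, and 0 of 14 regulators. Among those called were Rhd (3.32 ± 0.58, adjusted p = 0.0369) and Slc25a37 (2.76 ± 0.37, adjusted p = 0.00525). For globin-rich pixels, the E12 minus E10 difference was called positive for 8 of 11 heme genes, 5 of 17 membrane genes, 3 of 13 regulators and 1 of 7 iron genes, where 2.38% of all genes were called positive and 4.4% in either direction, with Trf (1.97 ± 0.36, adjusted p = 0.00347), Ppox (1.89 ± 0.52, adjusted p = 0.0286), Add2 (1.85 ± 0.33, adjusted p = 0.00234) and Lmo2 (1.55 ± 0.38, adjusted p = 0.0129) in front. Each of these stage differences rests on 1 E12 library, and for globin-rich pixels 0 of the 8 genes were called in it with the top 10% of pixels.

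Over all tissue pixels, 10 of the 54 were called higher at E12 than at E10 at 50 µm (2 of 12 heme genes, 2 of 15 regulators, 5 of 18 membrane genes and 1 of 9 iron genes), where 1.93% of all genes were called higher and 2.14% in either direction, with Tspo2 (adjusted p = 0.00184, 0, 0 and 1 counts in the E10 50 µm libraries and 109 at E12, so that its fitted change is no measure of size), Icam4 (3.38 ± 0.52, adjusted p = 0.0058), Tfr2 (2.75 ± 0.62, adjusted p = 0.0392) and Kel (2.44 ± 0.53, adjusted p = 0.0339) in front. At E11 against E10, Runx1 (2.06 ± 0.49, adjusted p = 0.0402) was higher, and Epb42 (-1.84 ± 0.44, adjusted p = 0.0392) and Slc25a37 (mitoferrin, the iron importer of mitochondria, -1.38 ± 0.27, adjusted p = 0.0178) were lower, where 3.6% of all genes were called.

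Among 11042 genes with a mean of at least 5 CPM, outside the 8 and the globins, those most like the summed 8 genes across pixels included Car2 (carbonic anhydrase, mean r 0.28 over 11 libraries, range 0.12 to 0.52), Acp5 (0.23), Ermap (0.23), Slc25a37 (0.23), Mt1 (0.22), Sptb (0.20), Fth1 (0.20), Cpox (0.20) and Rhag (0.20). The median of this mean r over all genes compared was 0.00035. Of these, Ermap, Slc25a37, Sptb, Fth1, Cpox and Rhag also stand in the 4 lists. These values are a description of pixels that share library and depth.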

How the data were processed

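Transcripts were measured in 11 libraries from mouse embryo sections, on paired reads of Nextera XT libraries per the labels' protocols. The deposited files hold counts per gene and pixel, whole numbers with no normalization. The submitters' processing notes name CASAVA 1.8.2 and the human build GRCh38. The aligner, annotation, use of strand and collapsing of molecular identifiers are not given in the sources used here. Tissue pixels were kept by their total (at least 0.1 of the 95th percentile), counts were summed per library, or per library and pixel class without globins, and tested with edgeR 4.0.16 (R 4.3.3, TMM, robust quasi-likelihood fit, filterByExpr) with Benjamini-Hochberg adjustment over all genes tested. Sums of pixel classes had the library as a block. DESeq2 1.42.0, other normalization, filters, pixel thresholds and leaving out each library were alternatives, and the fits per stage were added after the data were seen. The members and lists were chosen with earlier results of these data known. Named genes are the 8 members, in each comparison up to 4 called genes of the pathway lists per direction with the largest change, and the 10 genes most like the members' sum across pixels. Some genes that this rule names are not reported here. The fits were tested on simulated data, where 83.5% of 200 genes changed 4-fold were recovered for E11 against E10 (17108 genes) and 41.5% for E12 against E10 (17063 genes). Only genes with at least a minimum mean count were changed, and all genes of a simulation had the same spread between libraries. Genes with few counts may be recovered less often, and the fits per stage were not simulated. Counts per library in tissue pixels, 1563489 to 11998765, set the precision. Intervals are exact at 95% and cover counting error only.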

Additional observations from a re-analysis of the deposited data

Results flagged for a closer look

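In 8 cases the change of a gene differed between stages by a test of the difference itself, edgeR's quasi-likelihood test on a fit chosen after the data were seen. For liver-rich against other pixels, the E12 change exceeded the E11 change by 2.91 (log2) for Alas2, 2.67 for Slc4a1 and 1.95 for Tfrc. For liver-rich against globin-rich pixels outside them, it did so by 3.33 for Alas2 and 2.99 for Slc4a1. For globin-rich against other pixels, the E11 change of Alas2 exceeded the E10 change by 1.58, and the E12 changes of Tfrc and Fech exceeded the E10 changes by 2.06 and 1.08. E12 is 1 library in each of the 7 cases that involve it. In those that set it against E11, stage cannot be told apart from pixel width.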

How the results depend on the processing

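Over single genes and alternatives, 1164 values kept their direction and their side of the threshold, 69 gained a call, 42 lost one and 1 turned: Klf1 in liver-rich against globin-rich pixels, -0.0020 (log2) with all 11 libraries in place of 4. For E11 against E10 the count of the 8 genes called was 1 with no filter on low counts. For E12 against E10 it was 3 with RLE factors, 6 with no filter, 6 with DESeq2, 3 with a stricter tissue threshold and 7 with only the groups compared. For liver-rich against other pixels it was 0 with all 11 libraries. For liver-rich against globin-rich pixels it was 0 with the top 2% by liver genes, 0 with liver-rich pixels that were also globin-rich and 1 with the stricter threshold. The E12 minus E11 difference there gave 5 with the top 10% by liver genes. For globin-rich pixels, the top 10% by globin gave 0 for E11 minus E10 and 0 for E12 minus E10, and the top 50% gave 3 for E12 minus E11. The correlation of the summed genes with globins was 0.314 by Spearman and 0.280 after thinning. The cause was not tested in any of these.

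Leaving out 1 library at a time gave 0 to 1 calls for E11 against E10, 0 to 6 for E12 against E10, 0 to 1 for E11 10 against 25 µm and 0 to 0 for E10 10 against 50 µm. It gave 7 to 8 for globin-rich pixels, 2 to 5 for liver-rich against other and 1 to 4 for liver-rich against globin-rich pixels. For the stage differences it gave 1 to 2 (E11 minus E10), 2 to 2 (E12 minus E10) and 0 to 2 (E12 minus E11) in globin-rich pixels, 0 to 4 in liver-rich against other and 2 to 3 in liver-rich against globin-rich pixels. Correlations ranged from 0.453 to 0.465 with globins and from 0.0840 to 0.112 with liver genes. With the replicate number as a block, 0 of the 8 were called between widths at E11, and nothing in the labels says that the numbers pair those libraries.

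Over all genes, calls moved from 656 to 1988 (no filter), 1392 (DESeq2), 281 (only the groups compared) and 83 (25 µm alone) for E11 against E10. For E12 against E10 they moved from 390 to 1328 (no filter) and 1324 (only the groups compared), for E11 10 against 25 µm from 378 to 870 (no filter), and for E10 10 against 50 µm from 20 to 731 (no filter), 403 (DESeq2) and 32 (only the groups compared). They moved from 1329 to 2489 (no filter) for globin-rich pixels, and from 2278 to 1416 (top 2%) and 4 (all 11 libraries) for liver-rich against other pixels. For liver-rich against globin-rich pixels they moved from 1290 to 717 (DESeq2), 550 (top 2%), 377 (also globin-rich) and 217 (all 11 libraries). Few counts limit Gata1, Klf1 and Epor in single libraries.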

Other observations

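In 4 E10 sections an antibody against a red cell antigen (the tag named for erythroid cells and Ly76) was counted in the same pixels, and the values are a description added after the files were seen. Across pixels, Pearson's r of the tag with globin counts was 0.106 (E10 50 µm replicate 1), -0.006 (50 µm replicate 3), 0.026 (25 µm) and 0.039 (10 µm replicate 2). With the 8 genes summed it was 0.051, -0.038, 0.047 and 0.077. The share of antibody counts held by the tag was 1.05, 1.17, 1.04 and 1.12 times as high in globin-rich as in other pixels. The tag itself was grouped in space (Moran's I 0.44 to 0.58). The antibody tables and the transcript tables were joined by the stem of the sample title.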
